A study of Mus musculus with 2 samples.

Results

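Genes of neutrophil granules and of calprotectin were examined in the prefrontal cortex (PFC) of mice kept with or without chronic mild stress (CMS). The group held 10 genes, taken by name: S100a8, S100a9, Mpo, Elane, Ngp, Camp, Ltf, Lcn2, Mmp8 and Retnlg. All 10 had a probe on the array, 11 probes in all, among 37069 gene names. The genes were chosen by their role in neutrophils and with their CMS over C log2 ratios on these arrays already known, so the ratios below are a description and no test was made on them. S100a9 was also among the genes that the study picked for qRT-PCR, which was not analysed here.

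RNA came from male C57Bl/6 N sea mice of both groups. The C group was untreated and was housed in groups, and the CMS group was housed singly while exposed to a schedule of mild stressors over several weeks, so that stress and single housing cannot be told apart. According to the series design, PFC RNA of 7 mice was mixed for each group, and each pool was hybridized to 1 one-color Agilent array. There was thus 1 value per gene and group, no measure of how mice vary, and the groups could not be compared by a test.

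Neutrophils are short-lived white blood cells that are made in the bone marrow and kill microbes with proteins stored in granules. Azurophil granules, formed first, carry myeloperoxidase and serine proteases. Specific and gelatinase granules, formed later, carry lactoferrin, lipocalin 2, cathelicidin and collagenase. Calprotectin, the dimer of S100A8 and S100A9, fills the cytosol, binds zinc, manganese and calcium, and acts on Toll-like receptor 4 once released. The granule genes are transcribed mainly in marrow precursors under the factors PU.1 and the C/EBP family, and S100a8 and S100a9 stay abundant in circulating neutrophils and monocytes. In the healthy brain, such cells are found mostly inside blood vessels.

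Each array carried 55681 probes, and the share of spots that stood well above background was 65.2% on the C array and 65.9% on the CMS array. Signals are given as scaled signal, the scanner's processed intensity after each array was set to a mean of 2500. The detection limit, which is the lowest scaled signal well above background, was 17.8 for C and 17.6 for CMS. Each of the 11 probes was on 1 spot per array, and the error after ± is the one that the scanner software gave to that spot. It covers the measurement of the spot and not differences between mice. Over 342 probes printed on several spots, log2 ratios of the spots of 1 probe had an SD of 0.13. This SD was 0.26 for probes with a signal under 100, 0.10 between 100 and 1000, and 0.06 above. The tissue matched its label in that all 8 markers of cortical neurons were well above background in both pools, with a median log2 ratio of 0.01. Of all gene names, 68.6% were well above background in both pools. The neuron markers do not measure other tissue in the samples, and markers of other tissues are given below.

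Both calprotectin genes gave a higher signal in the CMS pool than in the C pool. S100a9, the larger subunit of the dimer, had a scaled signal of 371 ± 37.3 for the C pool and 843 ± 84.3 for the CMS pool. The signals differed by 471 ± 92.2, and the ratio was 2.27-fold, a log2 ratio of 1.18 ± 0.20. It was the only one of the 10 genes that was well above background in both pools and past 2-fold. S100a8, the smaller subunit, had a scaled signal of 132 ± 13.8 for the C pool and 232 ± 23.5 for the CMS pool. The log2 ratio was 0.82 ± 0.21, or 1.76-fold, which did not reach 2-fold. The log2 ratio of S100a9 exceeded that of S100a8 by 0.37 ± 0.29, so the subunits could not be separated clearly on the error of the spots. In bulk tissue, more cells of a type and more RNA per cell cannot be told apart.

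S100a8 and S100a9 lie next to each other on chromosome 3 on opposite strands, with 0 protein-coding genes between them. The bases just upstream of both starts are shown because these genes had the highest log2 ratios among the genes of the group measured in both pools. They are RefSeq sequences of GRCm38.p6, 250 bases each, read 5′ to 3′ on the strand of the gene and ending at the base before the start. S100a8 is at chr3:90668821-90669070 on the plus strand and S100a9 at chr3:90695722-90695971 on the minus strand. Capitals mark matches on either strand to the PU.1 core GAGGAA, the C/EBP core TTGCNNAA, in which N is any base, and the TATA motif TATAAA.
S100a8: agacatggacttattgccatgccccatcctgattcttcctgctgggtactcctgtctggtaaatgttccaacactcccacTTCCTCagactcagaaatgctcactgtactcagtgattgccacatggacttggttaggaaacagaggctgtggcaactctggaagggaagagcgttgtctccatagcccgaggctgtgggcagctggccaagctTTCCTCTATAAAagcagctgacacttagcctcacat
S100a9: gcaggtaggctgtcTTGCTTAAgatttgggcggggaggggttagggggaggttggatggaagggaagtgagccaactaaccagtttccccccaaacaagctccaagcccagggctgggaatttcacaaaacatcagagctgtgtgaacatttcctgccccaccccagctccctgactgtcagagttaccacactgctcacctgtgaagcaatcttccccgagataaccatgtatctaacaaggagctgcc

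The S100a8 window held the PU.1 core at 170 to 165 and at 36 to 31 bases before the start, both on the opposite strand. The latter directly precedes a TATA motif at 30 to 25 bases, so that the capitals run together. The S100a9 window held 1 match to the C/EBP core, 236 to 229 bases before the start. Over 32841 promoters of this length, 23.3% held the PU.1 core, 9.57% the C/EBP core and 12.4% the TATA motif. These are matches of letters, and binding was not measured.

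Among the genes of specific granules, 2 were seen above background in the CMS pool alone. Ltf encodes lactoferrin, an iron-binding protein. Its signal was 14.2 ± 4.44 for the C pool, not well above background, and 36.2 ± 5.47 for the CMS pool, well above it. Set against the lowest signal that was well above background, the CMS signal of Ltf was at least 2.03-fold that of C, a log2 bound of 1.02. Ngp, neutrophilic granule protein, is a cathelicidin- and cystatin-related protein of the same granules. Its signal was 7.32 ± 4.57 for the C pool, not well above background, and 28.5 ± 5.35 for the CMS pool, which gives at least 1.60-fold, a log2 bound of 0.68. The difference in signal was 22.0 ± 7.04 for Ltf and 21.2 ± 7.03 for Ngp. Both CMS signals lay near the limit of detection, where ratios of spots varied most.

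Camp, which encodes the precursor of the antimicrobial peptide CRAMP, was the only gene of the group with more than 1 probe. The brighter probe had a signal of 187 ± 19.1 for the C pool and 280 ± 28.2 for the CMS pool, a log2 ratio of 0.58 ± 0.21, or 49.5% higher. The other probe had 161 ± 16.6 and 237 ± 24.1, a log2 ratio of 0.56 ± 0.21, or 47.4% higher. Both probes were thus higher in the CMS pool by nearly the same ratio, and neither reached 2-fold. Lcn2 encodes lipocalin 2, which binds bacterial siderophores and is also made by inflamed astrocytes, endothelium and liver. It had a signal of 186 ± 19.2 for the C pool and 207 ± 21.2 for the CMS pool. The difference of 20.3 ± 28.5 was smaller than its error, and the log2 ratio was 0.15 ± 0.21. The log2 ratio of S100a9 exceeded that of Lcn2 by 1.03 ± 0.29.

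Mmp8, neutrophil collagenase, was not well above background in either pool, with signals of 5.63 ± 4.61 for the C pool and 4.46 ± 4.48 for the CMS pool. Retnlg, a resistin-like protein secreted by neutrophils, was not well above background either, with 9.55 ± 4.68 and 19.8 ± 4.78. The Retnlg signals differed by 10.2 ± 6.69 and those of Mmp8 by -1.17 ± 6.43. The difference was smaller than its error for Mmp8 and larger than its error for Retnlg. As neither gene was well above background in either pool, no ratio is given for them.

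Ltf, Ngp, Camp and Mmp8 all lie on chromosome 9. In order of position, 8 protein-coding genes lie between Camp and Ngp and 20 between Ngp and Ltf, and Mmp8 is far away, with 1020 between it and Camp. The upstream bases of Ngp and Ltf, the genes seen in the CMS pool alone, are shown in the same way. Ngp is at chr9:110419558-110419807 and Ltf at chr9:111019042-111019291, both on the plus strand of GRCm38.p6.
Ngp: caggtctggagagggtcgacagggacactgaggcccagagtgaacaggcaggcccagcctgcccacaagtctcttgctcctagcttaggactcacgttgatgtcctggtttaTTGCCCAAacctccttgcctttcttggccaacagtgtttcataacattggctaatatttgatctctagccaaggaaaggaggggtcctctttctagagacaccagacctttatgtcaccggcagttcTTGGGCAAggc
Ltf: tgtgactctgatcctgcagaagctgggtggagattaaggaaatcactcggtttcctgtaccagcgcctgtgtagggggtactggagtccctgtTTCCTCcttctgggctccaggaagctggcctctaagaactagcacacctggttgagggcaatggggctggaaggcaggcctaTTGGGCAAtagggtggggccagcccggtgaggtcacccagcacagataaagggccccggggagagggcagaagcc

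Ngp held the C/EBP core at 138 to 131 and at 11 to 4 bases before the start. Ltf held the C/EBP core at 75 to 68 bases and the PU.1 core at 157 to 152 bases before the start. Over the 10 genes, 6 held the PU.1 core, 6 the C/EBP core and 3 both, and 2.07% of all promoters held both. Camp held neither, so that 9 of 10 held at least 1 of them, beside 30.8% of all promoters. The TATA motif was found in 1 of 10, S100a8. Genes with matches included those not well above background in either pool, Mmp8 with 1 match to each core and Retnlg with 1 match to the C/EBP core. Elane had 1 match to the PU.1 core.

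The azurophil granule genes, Mpo and Elane, lay on opposite sides of a ratio of 1, and neither was past 2-fold. Mpo encodes myeloperoxidase, which makes hypochlorous acid from hydrogen peroxide. It had a signal of 49.5 ± 6.25 for the C pool and 69.5 ± 7.87 for the CMS pool, a log2 ratio of 0.49 ± 0.24, or 1.40-fold. Elane encodes neutrophil elastase, a serine protease. It had a signal of 2798 ± 280 for the C pool and 2291 ± 229 for the CMS pool, a log2 ratio of -0.29 ± 0.20, or 18.1% lower. Elane was the only gene of the group with a lower signal in the CMS pool among the 8 that had a ratio. It rested on 1 probe, whose signal was far above that of Mpo in both pools. Whether this probe reads only Elane was not tested. The log2 ratio of Mpo exceeded that of Elane by 0.78 ± 0.32.

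**Figure D1:**
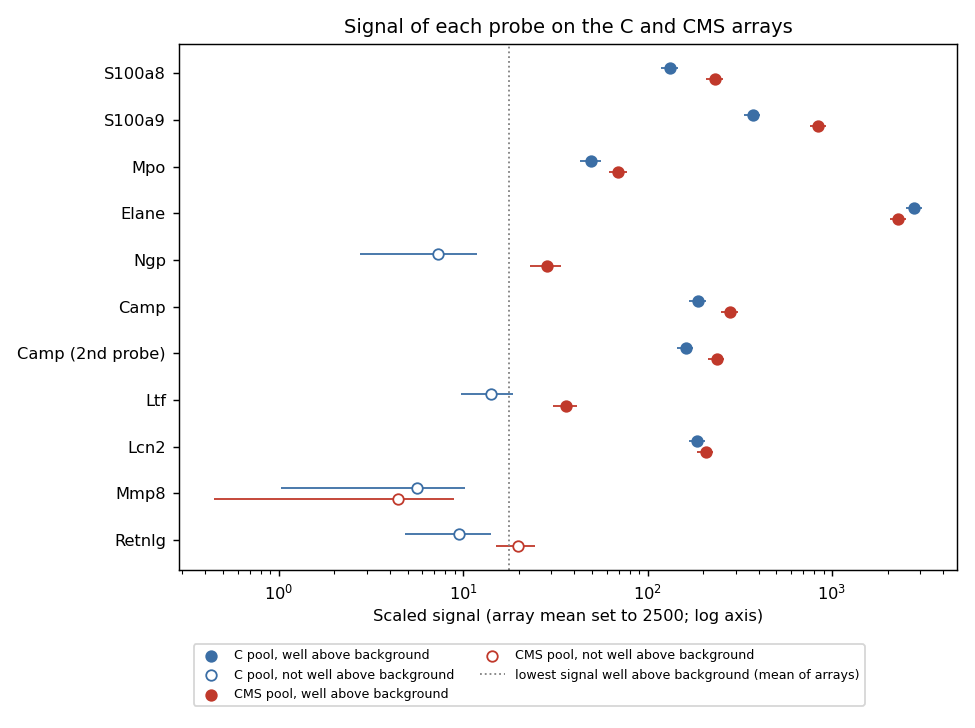
Scaled signal (log axis, array mean set to 2500) of each of the 11 probes in the C pool and the CMS pool, 1 array each. Bars are the scanner's error of the spot, cut off above 0 for Mmp8 in the CMS pool, open circles are probes not well above background, and the dotted line is the lowest signal that was well above it. The bars of the 2 pools overlap for Lcn2, Elane and Mmp8 and lie apart for the other 8 probes, all higher in the CMS pool.

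The plot of signals by pool shows that the genes fell into 3 sets by detection. Of the 10 genes, 6 were well above background in both pools, 2 in the CMS pool alone and 2 in neither, and 0 in the C pool alone. Over all 37069 gene names, 68.6% were detected in both pools, 2.65% in CMS alone, 1.89% in C alone and 26.9% in neither. The ratio was above 1 for 7 of the 8 genes that had one, where 41.2% of the 27112 genes with a ratio were above 1. The genes were chosen with these ratios known, so nothing is read from that share. Ltf and Ngp, among the 7, could not have a ratio below 1 by the rule for bounds. More than 2-fold higher were 2, S100a9 and the bound of Ltf, and 0 were below 0.5 times. Over all genes with a ratio, 2.58% were past 2-fold in either direction, 1.99% more than 2-fold higher and 0.59% below 0.5 times. Among genes well above background in both pools 1.16% were more than 2-fold higher, as was S100a9. For Ltf the share among genes that were well above background in the CMS pool alone is the closer background, and 25% of those were more than 2-fold higher. Nearest to 2-fold were Ltf (bound, 1.02) and S100a9 (1.18) inside and S100a8 (0.82) outside on the log2 scale. The median log2 ratio of the 8 genes was 0.63 with Ltf and Ngp at their bounds, while that of all genes was -0.03. Among genes well above background in both pools, it was 0.53 for the group and -0.03 for all genes. Among all genes well above background in the CMS pool alone, the median was 0.54.

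**Figure D2:**
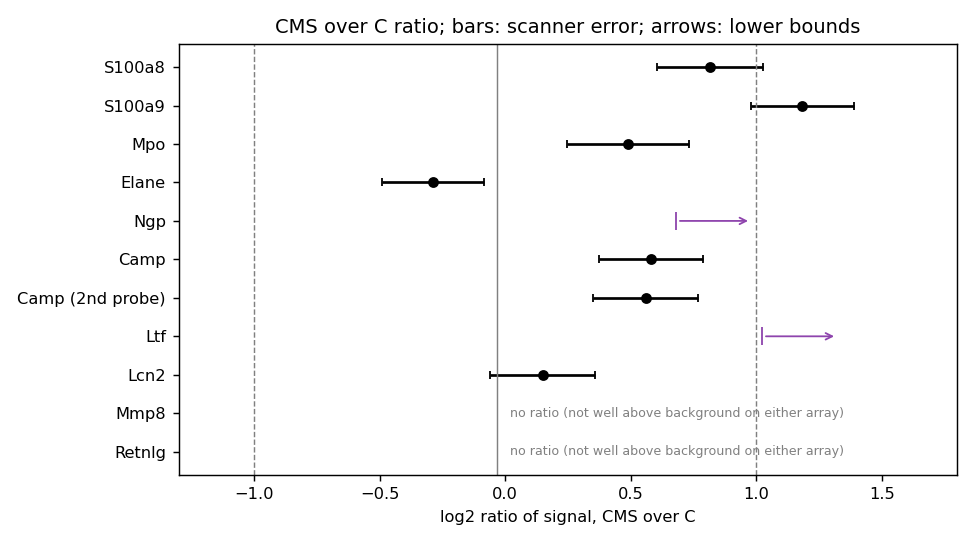
Log2 ratio of signal, CMS over C, for each probe with a ratio, with the error combined from the scanner's errors of both spots and a solid line at the median of all genes. Arrows mark the lower bounds of Ngp and Ltf, dashed lines mark 2-fold, and Mmp8 and Retnlg have no ratio. The values run from -0.29 for Elane to 1.18 for S100a9, whose bar reaches across 2-fold.

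The plot of log2 ratios by gene shows that the error bars of S100a9 and Lcn2 do not overlap, nor do those of Mpo and Elane. Among all 27112 genes with a ratio, 428 had a higher log2 ratio than S100a9, or 1.58%, and 664 had a higher one than S100a8, or 2.45%. For Camp the count was 1014, or 3.74%, for Mpo 1256, or 4.63%, and for Lcn2 4296, or 15.8%. For Elane, 91.3% of the genes were higher. The genes nearest to S100a9 in log2 ratio, by a rule that looks only at this value, were Klkb1 (69.6 for C, 157 for CMS), Amdhd1 (30.3 and 68.3) and Kat2b (37.5 and 86.0), all within 0.02 of it. With a single ratio per gene, this likeness holds 1 number over 2 arrays and describes nothing more.

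**Figure D3:**
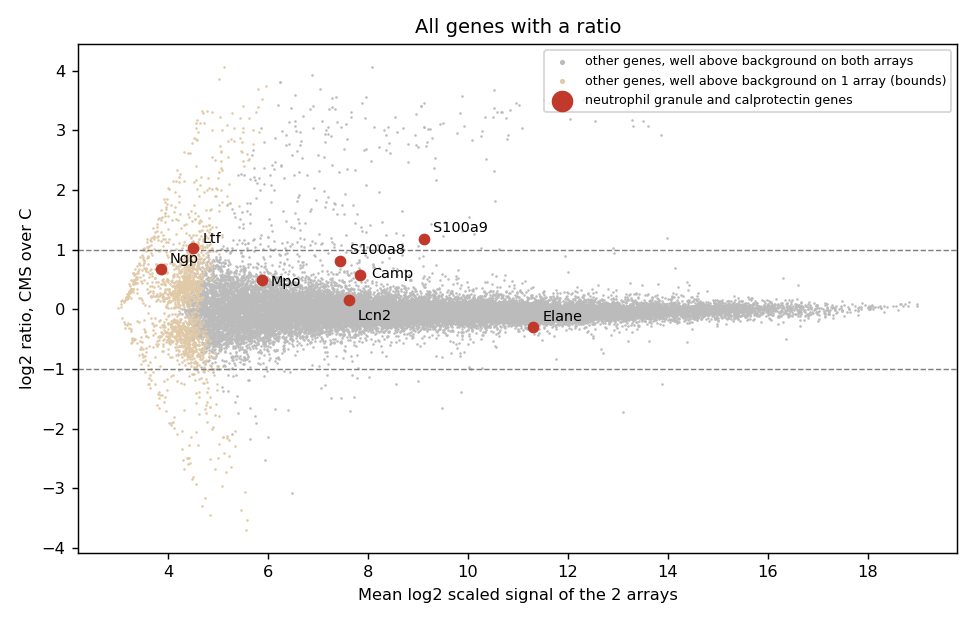
Log2 ratio of signal, CMS over C, against the mean log2 scaled signal of the 2 arrays for the 27112 genes with a ratio. Tan points are genes well above background on 1 array alone, whose ratios are bounds unless the dim signal already lay above the detection limit. Dashed lines mark 2-fold, and red points are the 8 granule and calprotectin genes with a ratio. S100a9, at 1.18, lies above the dense band of genes at its signal, and Ltf and Ngp lie among the bounds.

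The plot of all genes shows that ratios spread widely at low signal and narrowly at high signal. S100a9, S100a8 and Camp lie at the upper edge of the band or above it, Mpo inside its upper part, Lcn2 inside it and Elane at its lower edge. Position on the slide was also looked at. The median log2 ratio of the spots within 5 rows and columns of each probe ran from -0.12 to 0.03.

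Of 44 further neutrophil genes, 41 were matched to the array, and few of them were far from a ratio of 1. A ratio could be had for 23, and their median log2 ratio was 0.07. More than 2-fold higher was 1, and 0 were below 0.5 times. This was Wfdc21, which encodes a secreted protein of the whey acidic protein family. Its signal was 191 for the C pool and 1598 for the CMS pool, a log2 ratio of 3.06. That ratio lay near the median of the hepatocyte markers given below, 3.05, and which cells gave the signal was not tested. The summed signal over the list of neutrophil genes was 185092 for the C pool and 186027 for the CMS pool. Of this, the Csf3r probe, for the receptor of the neutrophil growth factor G-CSF, gave 144463 and 142620. The brightest Itgam probe gave a further 33158 and 34619, so the sums mostly follow these probes. Whether they read only their own genes was not tested. Of the 41 genes, 18 were not well above background in either pool. Among them were Cxcr2 (chemokine receptor), Mmp9 (gelatinase), Fpr2 (formyl peptide receptor) and Cybb (NADPH oxidase). Of 11 surface genes, 3 had a ratio, 2 above 1 and 1 below, with a median log2 ratio of 0.15 and 0 past 2-fold. These were Fpr1 (0.34), Trem1 (0.15) and Csf3r (-0.02).

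By granule, 3 of the 5 other azurophil genes had a ratio, 2 above 1 and 1 below, with a median log2 ratio of 0.37 and 0 past 2-fold. Ctsg, cathepsin G, had 28.4 for the C pool and 37.3 for the CMS pool, a log2 ratio of 0.39. Prss57, a serine protease, was detected in the CMS pool alone, with a log2 ratio of 0.37 to its own dim C signal. Prtn3, proteinase 3, which lies beside Elane in the genome, had 64.9 and 58.0, a log2 ratio of -0.16. Bpi and Ms4a3 were dim in both pools. Of 11 specific and gelatinase granule genes, 8 had a ratio, 0 past 2-fold, with a median log2 ratio of 0.01. Chil3, a chitinase-like protein also made by macrophages, came nearest, at 61.7 and 110, a log2 ratio of 0.84. Pglyrp1, a peptidoglycan-binding protein, had 254 and 226, a log2 ratio of -0.16, and Lyz2, lysozyme, had 54.3 and 67.1, a log2 ratio of 0.30. Itgam, the CD11b chain of the complement receptor that microglia also carry, had 33158 and 34619 by its brightest probe, a log2 ratio of 0.06. Its other probes were far dimmer, at 117 and 107 and at 67.2 and 64.7, with log2 ratios of -0.13 and -0.06. Of 5 transcription factors of the granulocyte lineage, Cebpe, needed for specific granules, was at least 1.58-fold higher, Cebpa had a log2 ratio of 0.28 and Cebpd one of -0.37. Spi1, which encodes PU.1, and Gfi1 were not well above background in either pool, with 18.8 and 8.43 for Spi1. Whether these probes read their genes well was not tested, so a dim signal does not show that the RNA was absent.

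No other S100 gene was past 2-fold. Of 14 further S100 genes, 11 had a ratio, and their median log2 ratio was 0.06. The highest was S100a5, at 1398 for the C pool and 2085 for the CMS pool, a log2 ratio of 0.58. S100b, the astrocyte calcium-binding protein, had 17617 and 18342, a log2 ratio of 0.06, and S100a6 had one of -0.04. Receptors of these proteins and their signalling partners gave 0 of 8 past 2-fold, with a median log2 ratio of -0.06. Tlr4, the Toll-like receptor for calprotectin, was well above background in the C pool alone, at 37.6 against 18.9. Its own CMS signal lay above the detection limit, and the log2 ratio to it was -0.99, but this was past 2-fold in 4 of 12 other settings and ran from -1.17 to -0.32. Its partner Ly96 had a log2 ratio of 0.31, and Ager, the receptor for advanced glycation end products, was dim in both pools. Slc22a17, a lipocalin 2 receptor, had a log2 ratio of -0.08, and Lrp1, which takes up lactoferrin, had -0.10. Of 6 inhibitors of granule proteases, 0 were past 2-fold. Slpi, an elastase inhibitor, was at least 1.61-fold higher, and Serpinb1a, which blocks elastase and cathepsin G, had a log2 ratio of -0.23. Of the resistin family, Retn had a log2 ratio of -0.14 and Retnla, seen in the C pool alone, had a bound of -0.92.

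Markers of other blood cells and of other tissues also differed between the pools, and their part in the values above was not tested. For erythroid cells, 7 of 10 markers on the array had a ratio, all 7 above 1 and 0 past 2-fold, with log2 ratios of 0.38 to 0.62, a median of 0.42, and a summed signal of 129228 for the C pool and 171246 for the CMS pool. The log2 ratios of Mpo and Camp lay inside that range, those of S100a8 and S100a9 above it, and those of Lcn2 and Elane below it. Most of the 7 were globin genes, at 0.38 to 0.47, and whether their probes read separate RNAs was not tested. The others were Alas2, at 0.49, and Slc4a1, at 0.62. The erythroid genes Epb42, of the red cell membrane skeleton, and Klf1, a transcription factor, were dim in both pools. Monocyte markers had a median log2 ratio of 0.34 over 3 genes, with Ccr2 dim in both pools and sums of 284 and 276. The brightest, F13a1, had 231 and 208, a log2 ratio of -0.15. Plac8 (0.39 ± 0.37) and Ms4a6c (0.34 ± 0.41) were near the limit of detection. Platelet markers had a median of 0.00 over 8, and sums of 1365 and 1325. Of these, 1 was past 2-fold, Gp5, which was dim in the C pool and had a log2 ratio of 1.02, and it was past 2-fold in 8 of 12 other settings, which ran from 0.23 to 1.05. For B cells the median was -0.08, for T and NK cells -0.00, for eosinophils -0.13 and for mast cells -0.66, over 5, 5, 2 and 2 genes. The mast cell genes were Tpsb2, with a log2 ratio of 0.04, and Mcpt4, which was past 2-fold lower. Mcpt4 was dim in the CMS pool, at 45.1 for C and 5.56 for CMS, a log2 bound of -1.36. A weaker Tpsb2 probe, also dim in the CMS pool, had a bound of -1.21.

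Of the lists examined, that of liver cells had the highest median. Of 10 hepatocyte markers, 9 were past 2-fold, all higher in the CMS pool, with a median log2 ratio of 3.05 and a summed signal of 9361 for the C pool and 82003 for the CMS pool. Of 10 acute phase genes, 9 had a ratio and 4 of these were more than 2-fold higher, Hp, Orm1, Orm2 and the bound of Crp. Saa3, the acute phase gene of macrophages, was dim in both pools. Microglial markers had a median log2 ratio of 0.05, choroid plexus 0.10, brain endothelium -0.06 and reactive astrocytes -0.19, and among the astrocyte genes Cp, ceruloplasmin, which the liver also makes, was past 2-fold at 1.01, and in 10 of 13 other settings. The log2 ratios of S100a8, S100a9 and Camp lay above the medians of these brain and vessel lists and below that of the hepatocyte list.

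**Figure D4:**
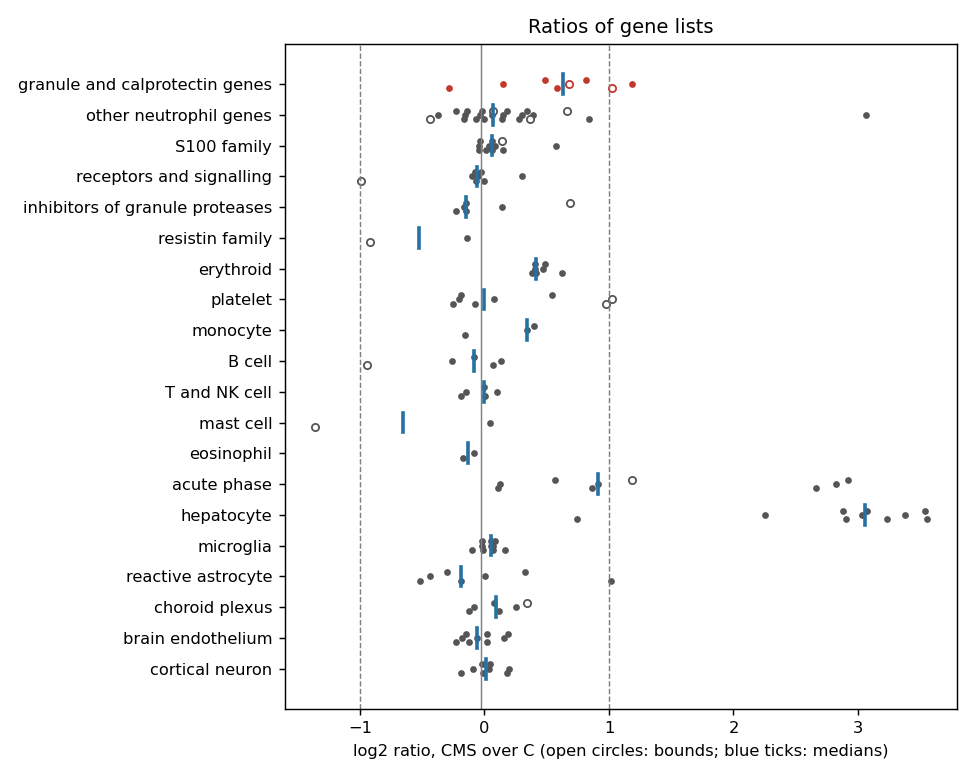
Log2 ratio of signal, CMS over C, of each gene with a ratio in the lists described, 1 point per gene, with the median of each list as a bar and dashed lines at 2-fold. The granule and calprotectin genes spread from -0.29 to 1.18 around 0.63, and the other neutrophil genes lie around 0.07. The erythroid genes, mostly globin genes, form a narrow group around 0.42, and the hepatocyte genes lie around 3.05.

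The plot of gene lists shows that the granule and calprotectin genes overlap the erythroid and acute phase genes in log2 ratio. It also shows the other neutrophil genes, apart from Wfdc21, drawn below S100a9, some of them at lower bounds. Of the genes at lower bounds, Cebpe reached 1.85 and Cd177 1.39 with no bound. Prss57 was taken at its own dim C signal of 19.5, above the detection limit, so that setting could not move it. Because the lists were chosen with results of these arrays known, their medians are descriptions.

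The values of the single genes were set side by side under 13 other ways of processing. S100a9 was past 2-fold in all 13, with log2 ratios of 1.01 to 1.23. Not all 13 could move a gene with 1 spot per array that was well above background in both pools. For S100a9, the settings for dim probes, outlier spots and several probes left 1.18, and the deposited table repeats the trimmed mean scaling. S100a8 was above 0 and short of 2-fold in all 13, at 0.63 to 0.92, and Camp ran from 0.41 to 0.60 and Mpo from 0.22 to 0.57. Elane stayed below 0, at -0.46 to -0.26. Lcn2 ran from -0.02 to 0.17 and so had no settled direction, being below 0 where the arrays were not scaled. Ltf was past 2-fold in 8 of 12 and ran from 0.34 to 1.35, and Ngp ran from 0.32 to 1.96. With no filter on dim probes, Retnlg had a log2 ratio of 1.05 and Mmp8 one of -0.34, both from signals not well above background.

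**Figure D5:**
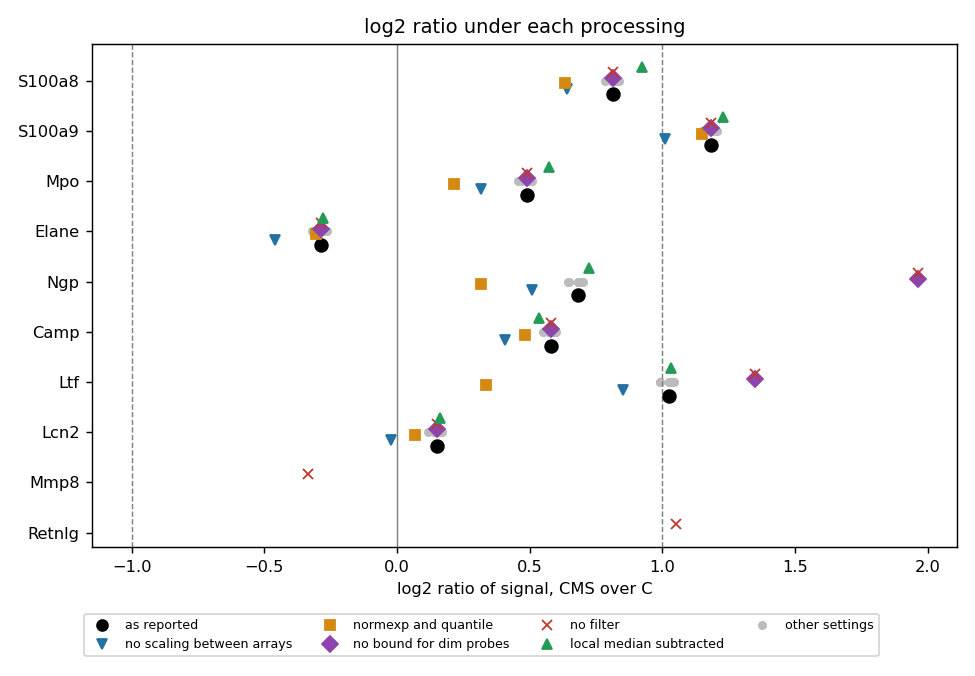
Log2 ratio of signal, CMS over C, of each of the 10 genes under the processing used in the text (black) and 13 others, 5 of them with a symbol of their own and the rest in grey. The dashed lines mark 2-fold. S100a9 keeps to the right of 2-fold at 1.01 to 1.23, while Ngp and Ltf, dim in the C pool, move over the widest range.

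The plot of processing settings shows that S100a9 kept to 1 side of 2-fold, while Mpo and S100a8 came nearer to 0 under normexp and Lcn2 lay on both sides of 0. For Ngp and Ltf the ratio depended on how the dim signal of the C pool was treated.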

How the data were processed

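Total RNA of the PFC was pooled by group (7 mice per pool by the design text; the study's methods state a larger number per group) and hybridized to 1 array per group, both on 1 slide. The authors deposited, per spot, the processed intensity of Agilent Feature Extraction 10.10.1.1, with background subtracted, linear and without scaling across arrays, and a table of the same intensities scaled by 1 factor per array to a trimmed mean of 2500. Here control spots and outlier spots (130 for C, 133 for CMS) were removed, the spots of a probe averaged, and both arrays scaled to 2500 on average. Detection required a share of 0.5 of a probe's spots to be well above background. On an array where a probe was dim, its signal was raised to the detection limit unless already above that. The fold to a raised signal is a lower bound, and a ratio of a probe dim on 1 array that pointed the wrong way was dropped. Probes dim on both arrays had no ratio. Where a gene had several probes, the brightest by mean log2 signal was taken. Genes counted as changed had a ratio above 2 or below 0.5, which 699 of 27112 genes (2.58%) had.

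Accessions were matched without version to symbols of RefSeq (GRCm38.p6), and 30740 of 59305 spots received a symbol. The array design was annotated on another build, so no probe coordinates are given. All 10 genes matched a promoter in the RefSeq table. Of the other neutrophil genes, Olfm4, BC100530 and Ly6g were not matched.

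The members and the gene lists were chosen with earlier results of these data known. Genes named are the members, members of the lists, and the 3 genes nearest to S100a9 in ratio. With 1 array per group, no test, no standard deviation between mice and no omission of a replicate could be made, so that precision is limited by the number of arrays. Alternatives changed the scaling (75th percentile, median, trimmed mean, none), the normalization (quantile), the background correction (normexp, offset 50, then quantile), the source (deposited table), the dim probes (no bound, both arrays, no filter), the outlier spots, the probes of a gene, and, added after seeing the data, the subtraction of the local median. Calculations ran in R 4.3.3 (limma 3.58.1) and Python 3.11.15 (pandas 2.3.3, numpy 2.4.6).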

Additional observations from a re-analysis of the deposited data

How the results depend on the processing

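No paired analysis was possible because each group had 1 array, and no replicate could be left out. Of 102 values of single members under 13 alternatives, 86 stayed within the spread between spots and 16 moved. The 86 include settings that could not change a gene with 1 spot per array that was well above background in both pools. Among the 102, the only change of sign was that of Lcn2 with no scaling, to -0.02. The alternative that subtracts the local median was chosen after seeing the data.

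The count of members past 2-fold, 2 and both higher, was 1 with scaling to the median, with no scaling, with quantile normalization, under normexp and with only genes detected on both arrays, 3 with no bound, and 4 with no filter. The median log2 ratio over the members, 0.63, was 0.46 with no scaling, 0.33 under normexp, 0.53 with only genes detected on both arrays, and 0.70 with no bound and with no filter. Other neutrophil genes past 2-fold, 1 as reported, were 3 with no bound and 5 with no filter. The 699 genes past 2-fold were 303 under normexp, 1076 with no bound, 338 with only genes detected on both arrays and 2562 with no filter. The filter settings change by construction how many genes have a ratio. Leaving out the bound widens by construction the ratios to a signal below the detection limit. Where the count of members fell to 1, Ltf was no longer past 2-fold. Its log2 ratio was 0.99 with scaling to the median and with quantile normalization, 0.85 with no scaling and 0.34 under normexp. It had no ratio with only genes detected on both arrays. For the other moves the cause was not tested. Leaving out the scaling shifted the median log2 ratio of all genes from -0.03 to -0.20. Signal over background limits Ngp, Ltf, Mmp8 and Retnlg.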
